A study of Mus musculus with 21 samples.

Results

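The collagen genes of mouse mammary tumors are described here from bulk RNA sequencing. Members were all genes whose name in the deposited expression table has the form Col, number, a, number, with Col17a1 left out, which gave 43 of the 23203 genes of that table. They were divided into 11 fibrillar collagens, 9 network-forming collagens, 9 fibril-associated collagens with interrupted helices (FACIT) and 14 others. The others hold the beaded filament, anchoring fibril, multiplexin and transmembrane collagens, together with Col26a1 and Col28a1. The rule uses names and no measured value, although it was set with earlier results of these data known.

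RNA was taken from 21 mammary tumors of virgin female mice, collected when a humane endpoint was reached. The 9 NeuNT control tumors (N) came from 9 mice carrying FloxNeoNeuNT and MMTV-CreNLST, and in 7 of these (N-1, N-3, N-4, N-6, N-7, N-8 and N-9) a Gata4 loxP allele was also present. The 12 RhoC tumors (R) came from mice that carried R26 RhoC/+ together with the same FloxNeoNeuNT and MMTV-CreNLST alleles, so the activated ErbB2/Neu allele and the Cre transgene were shared by both cohorts. MMTV drives Cre in mammary epithelium, after which wildtype mouse RhoC is expressed from the Rosa26 locus and activated Neu from the endogenous ErbB2 locus. The 12 RhoC tumors represent 8 mice, with 4 tumors (R-13, R-14, R-15 and R-16) from mouse P497 and 2 (R-6 and R-7) from mouse N9255, and R-18, whose mouse is not named in its label, was counted as a mouse of its own. The study's list of tumors gives R-6, R-13 and R-14 as squamous cell carcinomas and N-1 as a spindle cell tumor.

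Collagens are trimers of alpha chains that wind around each other through long stretches in which glycine opens every triplet of residues. Fibrillar collagens such as types I, III and V make the banded fibrils of connective tissue and tumor stroma, and types II and XI make those of cartilage. Type IV forms the network of basement membranes, FACIT collagens sit on the surface of fibrils, type VI makes beaded microfibrils, and type VII anchors the epithelial basement membrane to the tissue beneath it. In the mammary gland most fibrillar collagen is made by fibroblasts, whereas basement membrane and anchoring fibril chains are also made by epithelial cells.

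The fibrillar members stood apart from the other classes in their coding sequence. In the GENCODE M21 transcripts, runs of glycine codons at every triplet reached 337 to 344 triplets without a break in 9 of the 11 fibrillar members, and 217 and 216 triplets in Col27a1 and Col24a1. The longest run in the 9 network members was 39 to 66 triplets, and their helices were cut into 9 to 27 runs of at least 5 triplets. The longest runs of the FACIT members (32 to 113 triplets) and of the others (23 to 87 triplets) overlapped those of the network class. Short stretches of Col1a1, the alpha 1 chain of type I collagen, and Col4a1, the alpha 1 chain of type IV collagen, are shown to contrast an unbroken helix with an interrupted one. Each is 90 coding bases, codons 168 to 197 of Col1a1 and 1338 to 1367 of Col4a1, and capitals mark glycine codons that open a triplet.
Col1a1: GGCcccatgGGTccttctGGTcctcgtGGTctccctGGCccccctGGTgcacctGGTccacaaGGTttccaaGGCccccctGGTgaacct
Col4a1: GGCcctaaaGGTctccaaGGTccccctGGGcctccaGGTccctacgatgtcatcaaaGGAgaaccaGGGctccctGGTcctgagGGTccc
In Col1a1 the glycine codon returned at every triplet, while in Col4a1 the run ended and a new one began after the interruption. The coding exons of these stretches lie in Col1a1 on chromosome 11 and in Col4a1 on chromosome 8 of GRCm38.p6.

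Each tumor was represented by 47309780 to 100741339 reads counted on genes, so counting error was small for the abundant members. Rhoc, the gene carried by the transgene, was not separated between the cohorts (0.19 on the log2 scale, SE 0.34, with p = 0.774 after adjustment in edgeR). Reads of the endogenous gene and of the mouse RhoC transgene were not told apart in this count. It therefore does not show whether the transgene was expressed. Luminal epithelial markers (Krt8, Krt18, Krt19, Epcam, Cdh1 and Cldn3) summed to 1144 to 5820 CPM (normalized counts, scaled to library size) and were present in every tumor. N-17 stood apart in its skeletal muscle markers, which summed to 18140 CPM against at most 2124 CPM in any other tumor, and in adipocyte markers at 523 CPM against at most 43.6 CPM. R-10 held both of these next values, and the part of such tissue in its collagen levels was not tested. In N-9 the fibroblast markers summed to 76.0 CPM, the lowest of all tumors, and the 43 members together took 0.263% of its counts. In bulk RNA, fewer cells of a type and less RNA per cell cannot be told apart.

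Levels of different genes were compared on the authors' FPKM scale, which divides by gene length. Averaged over 21 tumors, 22 of the 43 members reached a mean of 10 FPKM or more, 7 fibrillar, 4 network, 6 FACIT and 5 other members. Col1a1 had the highest mean level at 236 FPKM, followed by Col1a2 at 194, Col3a1 at 155 and Col4a1 at 149 FPKM. Type I collagen chains, type III collagen and type IV collagen, the main products of stroma and basement membrane, thus led the list. This order is that of the mean over both cohorts. In controls alone the order of these genes depended on the measure, with Col3a1 highest by mean (162 FPKM, against 152 for Col1a1 and 149 for Col1a2) but below both by median (119 FPKM, against 180.2 and 181), and N-17 held the most Col3a1 of the controls, at 422 FPKM. They were followed by Col11a1 at 84.4, Col4a2 at 81.5, Col18a1 at 77.4, Col8a1 at 68.8, Col12a1 at 67.2 and Col9a1 at 63.9 FPKM. Col11a1 and Col9a1 are known best from cartilage, and their place in this order differed between the cohorts. Col11a1 had a median of 30.1 FPKM in controls and 82.7 FPKM in RhoC tumors, and the control mean of Col9a1, 37.0 FPKM, lay below those of Col6a1, Col8a1, Col12a1 and Col5a2. At the other end Col22a1 and Col19a1 had mean levels of 0.0129 and 0.0101 FPKM, and Col19a1 had no read in 12 of the tumors. Neighbors in this order overlapped widely, since Col1a1 alone ranged from 14.8 FPKM in N-9 to 1004 FPKM in R-13.

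**Figure D1:**
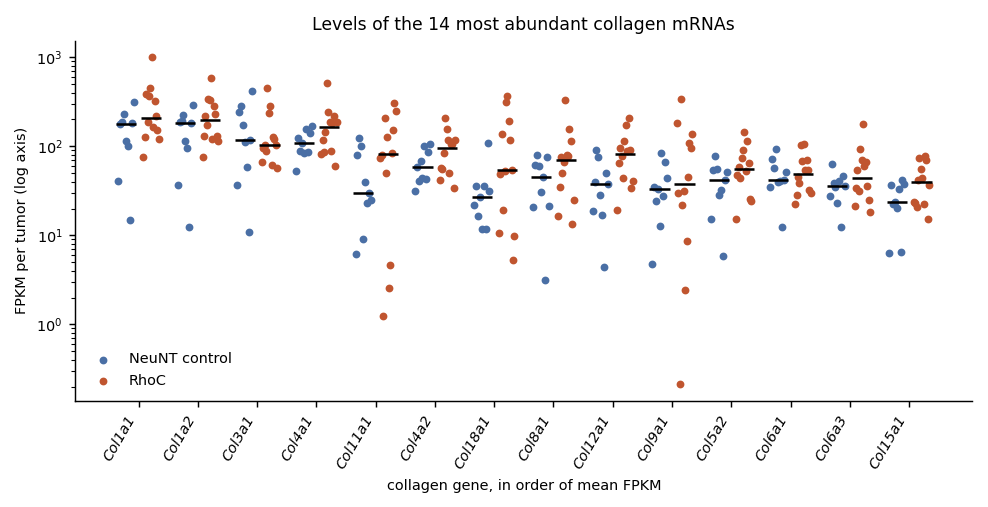
FPKM of the 14 most abundant collagen genes (horizontal axis, in order of mean FPKM) in each tumor on a log axis, with NeuNT controls in blue, RhoC tumors in orange and bars at the cohort medians. The cohorts overlap for every gene, and Col11a1 and Col9a1 spread most widely, with RhoC tumors both below and above all controls.

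The share of all counts taken by the 43 members ranged from 0.263% to 1.33% in NeuNT controls (median 0.858%) and from 0.584% to 2.22% in RhoC tumors (median 1.07%). R-13, R-10 and R-12 held the largest shares, at 2.22%, 1.99% and 1.77%, and N-9 and N-1 the smallest, at 0.263% and 0.368%. The ranges of the cohorts overlapped. R-13 was the highest tumor for 9 of the tested members and R-10 for 6, whereas N-9 was the lowest for 15.

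Of the 43 members, 41 passed the filter on low counts and were tested, while Col19a1 and Col22a1 did not. By edgeR's quasi-likelihood test with Benjamini-Hochberg adjustment over all 19315 genes tested, 0 members passed the threshold of 0.05, against 0.223% of those genes. DESeq2 called 4 members (Col2a1, Col11a2, Col7a1 and Col23a1, all higher in RhoC tumors), where it called 5.71% of the 25184 genes it tested. It called 6 when its replacement of outlying counts was switched off, with Col27a1 higher and Col6a6 lower as the added genes, against 6.98% of 24463 genes. A voom fit in limma that treated mice as random effects called none, and in it 2 members had an unadjusted p under 0.05 and were higher, where 7.03% of all genes did so. With edgeR and no adjustment, 10 members had p under 0.05 and were higher in RhoC tumors, where 10.5% of all genes did so. A single member, Col6a6, was lower at that threshold, where 9.93% of all genes were.

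By sign, 30 of the 41 tested members (73.2%) had a higher mean level in RhoC tumors, against 49.6% of all genes. Their median log2 fold change was 0.64, against -0.01 over all genes tested. The classes differed in this description. Among fibrillar members 10 of 11 were higher, with a median of 0.95, and among network members 8 of 9, with a median of 0.55. Among FACIT members 4 of 7 were higher, with a median of 0.00 that ran from -0.15 to 0.82 over the alternative settings. Among the others 8 of 14 were higher, with a median of 0.12 that ran from -0.27 to 0.28. Members of a class share tumors and partly cells of origin, so these counts carry no test. The p-values treat tumors of the same mouse as independent, although limma estimated a correlation of 0.27 within mice, and they measure the spread between tumors.

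**Figure D2:**
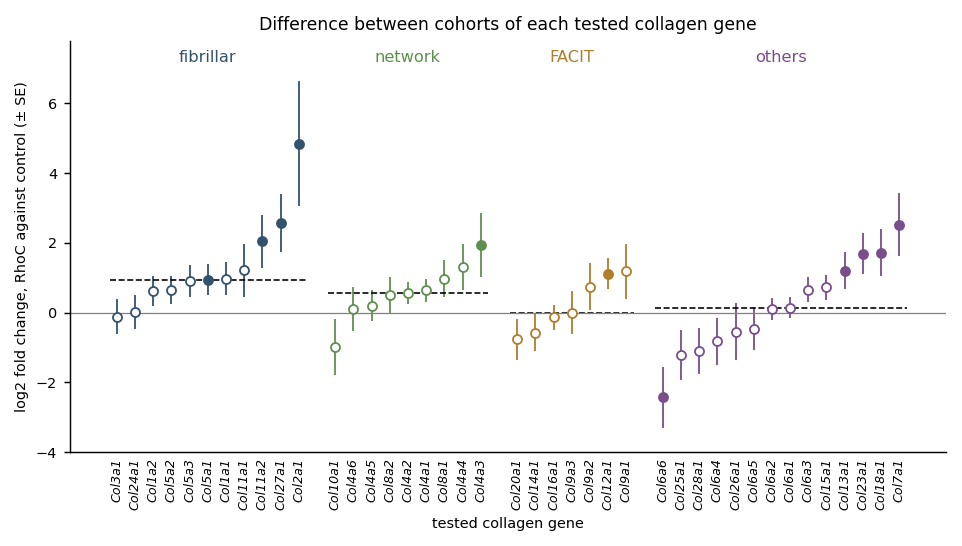
Log2 fold change of each tested collagen gene, RhoC against control, from edgeR with its standard error as the vertical bar, in 4 classes along the horizontal axis. Filled points have an unadjusted p under 0.05, open points do not, and dashed lines mark the class medians of 0.95, 0.55, 0.00 and 0.12.

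**Figure D3:**
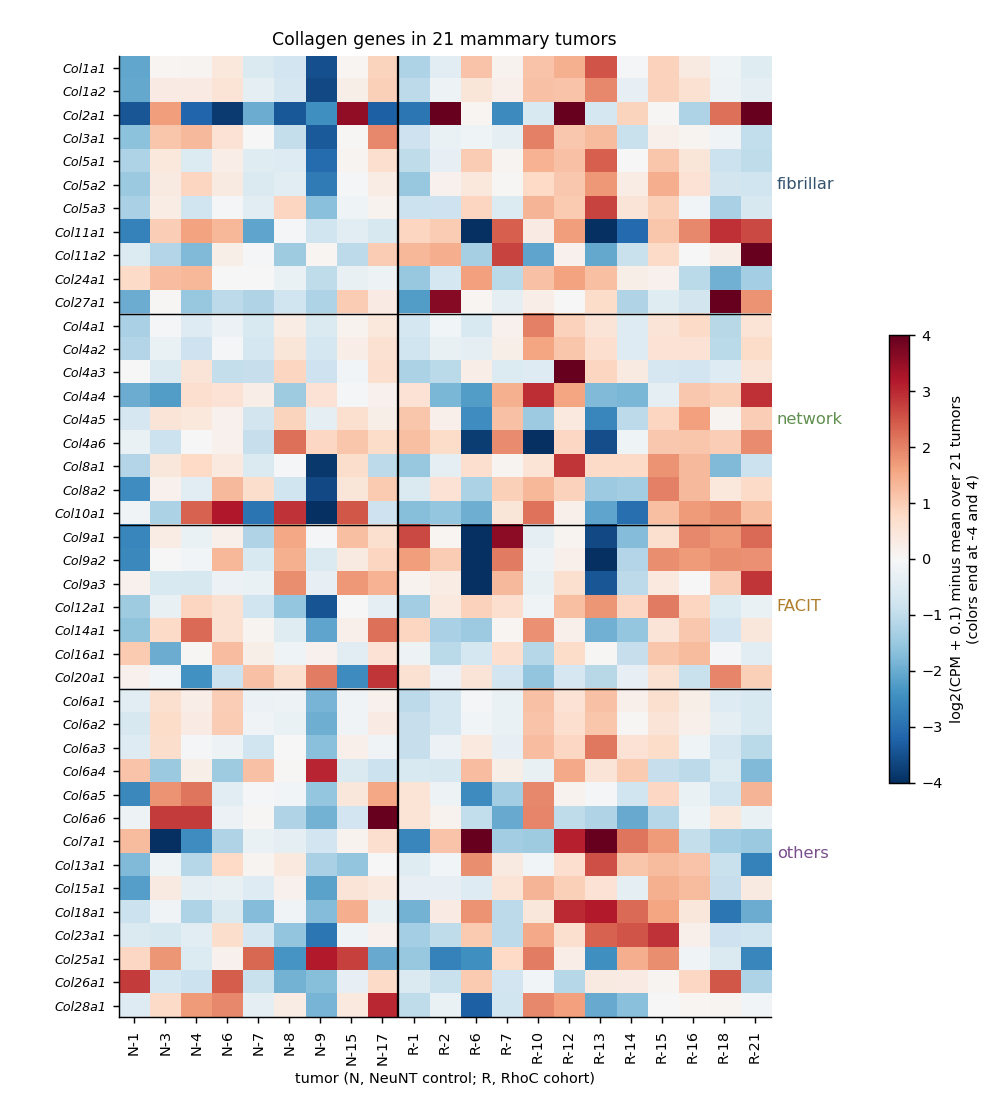
Each tested collagen gene (rows, by class) in each tumor (columns, controls left of the line) as log2(CPM + 0.1) minus its mean over 21 tumors, red above and blue below the mean, with colors ending at -4 and 4. N-9 is blue for most fibrillar genes, and R-6 and R-13 are blue for Col11a1, Col4a6 and the chains of type IX collagen but red for Col7a1.

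Type I collagen, the main fibril of stroma, is a trimer of the products of Col1a1 and Col1a2. Col1a1 ranged from 91.9 to 1961 CPM in controls (median 1094) and from 448 to 5999 CPM in RhoC tumors (median 1256), highest in R-13 and lowest in N-9. The log2 fold change was 0.97 (SE 0.48, unadjusted p = 0.0548 with edgeR), and 5 of 12 RhoC tumors lay above every control. Col1a2 ranged from 69.4 to 1646 CPM in controls (median 999.5) and from 410.3 to 3216 CPM in RhoC tumors (median 1081), with a log2 fold change of 0.61 (SE 0.43, unadjusted p = 0.173 with edgeR). For each gene the cohort medians lay close together. The means of log2 CPM differed by 1.04 for Col1a1 and 0.83 for Col1a2 (exact 2-sided permutation p = 0.0608 and 0.116). Both the upper RhoC tumors and the lowest control, N-9, entered the difference. In edgeR the log2 fold change of Col1a1 was 0.81 without N-9. Without R-13 the log2 fold change of Col1a1 was 0.63 and that of Col1a2 was 0.40, and without the 4 tumors of mouse P497 they were 0.63 and 0.35. Col3a1, which makes the type III collagen of reticular fibers, did not share this direction. It ranged from 77.6 to 3025 CPM in controls (median 829) and from 402 to 3218 CPM in RhoC tumors (median 723), with a log2 fold change of -0.12 (SE 0.50, unadjusted p = 0.819 with edgeR) that was 0.20 with the Gata4 loxP controls alone.

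Type V collagen is built into type I fibrils and limits their width. Col5a1 ranged from 22.1 to 300.5 CPM in controls (median 134) and from 91.9 to 982 CPM in RhoC tumors (median 232), with a log2 fold change of 0.95 (SE 0.45, unadjusted p = 0.0452, adjusted p = 0.235 with edgeR; exact permutation p = 0.0925 on log2 CPM). Col5a2 ranged from 39.8 to 516 CPM in controls (median 279) and from 99.9 to 950.2 CPM in RhoC tumors (median 368), at a log2 fold change of 0.65 (SE 0.40, unadjusted p = 0.123 with edgeR). Col5a3 had its highest level, 344 CPM, in R-13 as well. Without mouse P497 the log2 fold change was 0.57 for Col5a1 and 0.24 for Col5a2, and with counts summed per mouse that of Col5a2 was 0.36. All 3 chains of type V were highest in R-13 and lowest in N-9, like the chains of type I.

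Types II, XI and XXVII are the fibrillar collagens of cartilage. Col2a1, the type II chain, was nearly silent in most controls, from 0.0166 to 19.2 CPM (median 0.0840), and ranged from 0.125 to 547 CPM in RhoC tumors (median 1.64). Every RhoC tumor lay above the control median, but only R-2 (547 CPM), R-21 (345 CPM) and R-12 (55.1 CPM) lay above the highest control, N-15. The log2 fold change of 4.84 (SE 1.79, unadjusted p = 0.0131, adjusted p = 0.151 with edgeR) stood at 3.76 without R-2 and at 2.87 with DESeq2, and the exact 2-sided permutation test on log2 CPM gave p = 0.0311. Col11a2, the alpha 2 chain of type XI, ranged from 0.630 to 4.91 CPM in controls (median 1.60) and from 0.484 to 53.3 CPM in RhoC tumors (median 2.77), highest in R-21. Its log2 fold change was 2.04 (SE 0.76, unadjusted p = 0.0139 with edgeR; exact permutation p = 0.214 on log2 CPM) and 1.02 without R-21. Col27a1 ranged from 2.61 to 21.4 CPM in controls (median 5.07) and from 2.16 to 319 CPM in RhoC tumors (median 10.9). The tumors R-18, with 319 CPM, R-2, with 132 CPM, and R-21, with 37.2 CPM, lay above every control. It had the smallest unadjusted p of all members, 0.00581, and its means differed by 2.57 on the log2 scale (SE 0.84, adjusted p = 0.116 with edgeR), which was 1.51 without R-18 and 1.43 with DESeq2. The exact 2-sided permutation test on log2 CPM gave p = 0.109. Col24a1, its nearest relative by the length of the helix, showed no such tumors and stayed between 0.395 and 5.82 CPM.

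Col11a1, the alpha 1 chain of type XI, was far more abundant than Col11a2. It ranged from 49.0 to 976 CPM in controls (median 238) and from 9.71 to 2439 CPM in RhoC tumors (median 665). R-18, R-21, R-7, R-16 and R-12 lay above all controls, and R-6, R-13 and R-14, the 3 tumors listed as squamous, lay below all of them at 9.71, 19.9 and 36.8 CPM. The log2 fold change was 1.21 (SE 0.75, unadjusted p = 0.123 with edgeR), and the exact 2-sided permutation test on log2 CPM gave p = 0.599. Without the 3 squamous tumors the log2 fold change was 1.61.

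Ratios between chains were compared because a ratio within a tumor does not depend on library scaling. Of 6 ratios, planned with earlier results of these data known, that of Col3a1 to Col1a1 had a Benjamini-Hochberg adjusted p under 0.05. On the FPKM scale it ranged from 0.580 to 1.52 in controls (median 0.908) and from 0.268 to 1.21 in RhoC tumors (median 0.499). The ratio lay below the control median in 11 of 12 RhoC tumors and below every control in 8, while R-10 (1.21), R-1 (0.878), R-2 (0.752) and R-18 (0.678) overlapped the controls. The mean log2 ratio differed by -0.83 (RhoC minus control), or 0.561-fold (exact 2-sided permutation test, p = 0.00535, adjusted over 6 ratios p = 0.0321). The lowest ratios were those of R-6 (0.268), R-13 (0.282), R-14 (0.376) and R-15 (0.398), and 3 of these 4 tumors came from mouse P497. With the counts of each mouse summed the difference was -0.63 (exact permutation p = 0.0392, adjusted p = 0.192), without mouse P497 -0.63 (adjusted p = 0.255), without the squamous tumors -0.58 (adjusted p = 0.181) and with the Gata4 loxP controls alone -0.83 (adjusted p = 0.0641). The adjusted p also rose above 0.05 on leaving out any of 9 single tumors (N-3, N-4, N-7, N-17, R-6, R-13, R-14, R-15 and R-21), up to 0.0743. The direction held in each of these fits.

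**Figure D4:**
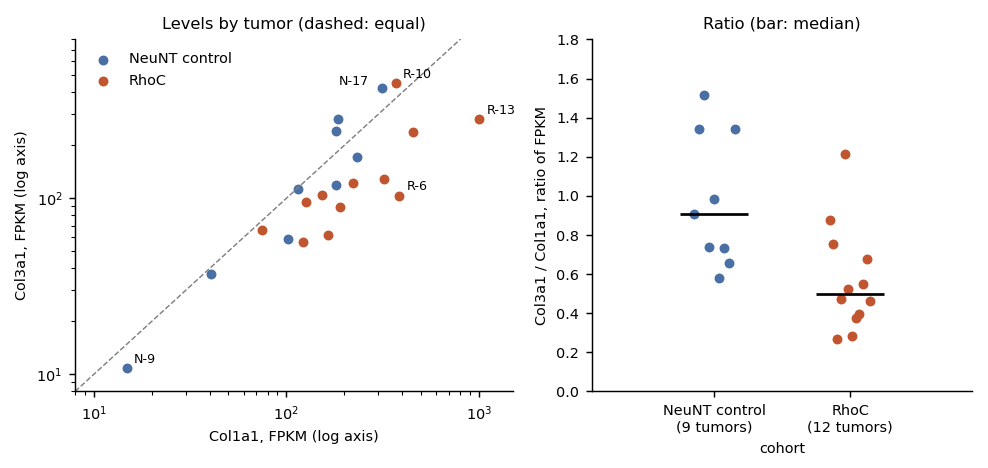
Left, FPKM of Col3a1 against Col1a1 in each tumor on log axes, with a dashed line of equality, and right, their ratio by cohort with bars at the medians of 0.908 in controls and 0.499 in RhoC tumors. R-13 and R-6 lie farthest below the line, whereas N-17 and R-10 lie above it.

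The proportion of the type I chains had an SD between tumors of 0.11 in controls and 0.30 in RhoC tumors on the log2 scale, a difference that was not tested. Col1a1 to Col1a2 ranged from 0.956 to 1.21 in controls (median 1.03) and from 0.960 to 1.77 in RhoC tumors (median 1.12), a difference of 0.20 on the log2 scale (exact 2-sided permutation test, p = 0.0688, adjusted p = 0.194). R-6, R-13, R-14 and R-12 lay above all controls, at 1.77, 1.70, 1.37 and 1.37. For Col5a1 to Col5a2 the difference was 0.17 (exact p = 0.427), with N-4 at 0.191 as the lowest tumor and a difference of 0.0105 without it, and for Col6a3 to Col6a1 0.34 (exact p = 0.0968). Col4a1 to Col4a2 differed by 0.0041 and Col6a1 to Col6a2 by 0.0042 on the log2 scale (exact p = 0.963 and 0.927), and both ratios moved by small amounts between tumors, from 1.54 to 2.45 and from 1.42 to 1.87.

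Type IV collagen is made of 6 chains whose genes lie head to head in pairs. Col4a1, part of the common basement membrane network, ranged from 352 to 1178 CPM in controls (median 738) and from 405 to 3543 CPM in RhoC tumors (median 1114). R-10 was the highest tumor and 6 of 12 RhoC tumors lay above all controls, at a log2 fold change of 0.64 (SE 0.33, unadjusted p = 0.0668 with edgeR) that was 0.36 without R-10. Col4a2, its partner chain, ranged from 204 to 702 CPM in controls (median 382) and from 219 to 1384 CPM in RhoC tumors (median 617), at a log2 fold change of 0.55 (SE 0.32, unadjusted p = 0.0956 with edgeR). Both were lowest in N-1. Col4a5 and Col4a6, chains of epithelial and smooth muscle basement membranes, had log2 fold changes of 0.20 and 0.11 (unadjusted p = 0.646 and 0.868 with edgeR), while their means of log2 CPM differed by -0.21 and -0.60 (RhoC minus control). Col4a6 stood at 0.829 CPM in R-10, 2.41 in R-6 and 2.88 in R-13, against at least 18.4 CPM in any control, and Col4a5 was lowest in R-13 (24.5 CPM) and R-6 (26.7 CPM).

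Col4a3 and Col4a4, chains of the kidney glomerular basement membrane, were low throughout. Col4a3 ranged from 0.0664 to 0.474 CPM in controls (median 0.195) and from 0.0341 to 0.480 CPM in RhoC tumors other than R-12, which reached 8.22 CPM. The log2 fold change of 1.95 (SE 0.92, unadjusted p = 0.0462 with edgeR; exact permutation p = 0.780 on log2 CPM) rested on that tumor, being -0.25 without R-12 and -0.24 with DESeq2. Col4a4 ranged from 0.492 to 4.41 CPM in controls (median 3.06) and from 0.502 to 21.6 CPM in RhoC tumors (median 4.72), with R-10 and R-21 highest, at a log2 fold change of 1.31 (SE 0.67, unadjusted p = 0.0618 with edgeR). In R-12 both genes happened to have 485 reads. A stretch between the starts of these genes that no annotated exon covers is shown, since here a shared start region went with unlike levels. It is chr1:82586850-82586920 of GRCm38.p6, 71 bases, written on the minus strand as Col4a4 is read.
Col4a4 and Col4a3: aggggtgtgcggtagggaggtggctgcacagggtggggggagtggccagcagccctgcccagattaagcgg
The stretch holds none of the 3 promoter motifs described further on, on either strand.

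Across 17 mice, with tumors of a mouse averaged, neighboring genes were compared by the correlation of log2 CPM. Col4a1 and Col4a2, whose annotated starts overlap by 22 bases on chromosome 8, gave Pearson r = 0.968 and Spearman rho = 0.961 (permutation p = 1e-05 each, the smallest that 100000 resamples can give). For Col4a3 and Col4a4, whose starts lie 126 bases apart on chromosome 1, r was 0.215 and rho 0.0858 (permutation p = 0.409 and 0.743), with r = -0.20 within controls and 0.34 within RhoC mice. Col4a3 had a control median of 0.195 CPM and as few as 3 reads in a tumor. Counting error is large at that level, so this r cannot be set directly against those of the abundant pairs. Col4a5 and Col4a6, 1308 bases apart on the X chromosome, gave r = 0.799 and rho = 0.735 (permutation p = 7e-05 and 0.00103), with r = 0.557 in controls and 0.908 in RhoC mice. So 2 of the 3 divergent pairs of type IV genes had levels that moved together over these mice. Col6a1 and Col6a2 gave r = 0.992, Col1a1 and Col1a2, on different chromosomes, r = 0.990, and Col3a1 and Col5a2, 24614 bases apart, r = 0.869. All 5 correlations other than Col4a3 with Col4a4 had adjusted p of at most 0.00124 over the 6 pairs for r and rho, and without the 2 mice farthest from the median of the first gene r was 0.663 or more for each of them.

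The short-chain network collagens are products of endothelium and other cells (type VIII) and of hypertrophic cartilage (type X). Col8a1 ranged from 16.3 to 407 CPM in controls and from 69.7 to 1724 CPM in RhoC tumors, with R-12 highest and N-9 lowest, at a log2 fold change of 0.98 (unadjusted p = 0.0858 with edgeR). Col8a2 had the same lowest tumor, at 0.623 CPM. Col10a1 was the only network member with a negative log2 fold change in edgeR's fit (-0.98, unadjusted p = 0.239), but its median was 4.14 CPM in controls and 5.89 CPM in RhoC tumors, 7 of which lay above the control median. Its 4 highest tumors were the controls N-6, N-8, N-15 and N-4, at 42.7, 34.5, 25.98 and 23.9 CPM. Col10a1 lies within Nt5dc1, and whether reads were counted by strand is not given in the sources used here, so some reads of this locus may have been set aside as ambiguous or assigned to the other gene.

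FACIT collagens decorate fibrils. Col12a1, which is carried on type I fibrils of dense stroma, ranged from 54.6 to 1104 CPM in controls (median 474) and from 231 to 2549 CPM in RhoC tumors (median 1014). In 10 of 12 RhoC tumors it lay above the control median, and a single control, N-4, lay above the RhoC median. Its log2 fold change was 1.11 (SE 0.45, unadjusted p = 0.0218, adjusted p = 0.179 with edgeR), with p = 0.0197 in the exact 2-sided permutation test, and 0.61 without mouse P497. Col14a1 and Col16a1, the other FACIT chains of soft stroma, had log2 fold changes of -0.58 and -0.14 (unadjusted p = 0.286 and 0.704 with edgeR). Col14a1 was highest in the controls N-4 and N-17, at 298 and 284 CPM. Col20a1, with 0.274 to 15.3 CPM in controls (median 2.31) and 0.605 to 8.06 CPM in RhoC tumors (median 1.65), had a log2 fold change of -0.77 (SE 0.60, unadjusted p = 0.213 with edgeR), which was -0.19 without N-17, its highest tumor. Col19a1 and Col22a1 had at most 69 and 54 reads in a tumor and were highest in N-17 as well.

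Type IX collagen, the FACIT of cartilage fibrils, has 3 chains. Col9a1 ranged from 24.1 to 430 CPM in controls (median 170) and from 1.06 to 1754 CPM in RhoC tumors (median 196). R-7, R-1, R-21, R-16 and R-18 lay above every control, whereas R-6 and R-13, at 1.06 and 12.05 CPM, lay below every control. The cohort difference therefore depended on the scale, with a log2 fold change of means of 1.18 (SE 0.78, unadjusted p = 0.144 with edgeR) and an exact 2-sided permutation p of 0.974 on log2 CPM. Without R-7, its highest tumor, the log2 fold change was 0.70. Col9a2 and Col9a3 were lowest in the same pair of tumors, at 0.903 and 1.32 CPM for Col9a2 and 1.28 and 3.86 CPM for Col9a3. Their log2 fold changes were 0.74 and 0.00 (unadjusted p = 0.284 and 0.999 with edgeR). So the 3 chains of type IX and Col11a1, which build the same fibril in cartilage, shared their lowest tumors in the RhoC cohort.

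Among the other members, type VI collagen forms the beaded filaments around cells. Col6a1 ranged from 52.5 to 378 CPM in controls (median 173) and from 91.6 to 432 CPM in RhoC tumors (median 202), with a log2 fold change of 0.15 (SE 0.31, unadjusted p = 0.645 with edgeR). Col6a2 ranged from 45.8 to 355 CPM in controls (median 160) and from 92.4 to 390.2 CPM in RhoC tumors (median 173), with a log2 fold change of 0.10 (SE 0.31, unadjusted p = 0.752 with edgeR). These chains differed less between the cohorts than the spread between tumors, and both were near 0 or lower in RhoC mice when counts were summed per mouse (-0.01 and -0.02). Col6a3, the long chain of the same trimer, ranged from 137 to 704 CPM in controls (median 396) and from 204 to 1894 CPM in RhoC tumors (median 480), highest in R-13, at a log2 fold change of 0.66 (SE 0.37, unadjusted p = 0.0839 with edgeR), which was 0.37 without R-13 and 0.27 without mouse P497. The alternative long chains Col6a4, Col6a5 and Col6a6, which lie next to each other on chromosome 9, were all low and all lower on average in RhoC tumors (log2 fold changes -0.82, -0.46 and -2.43). Col6a6 ranged from 0.0271 to 10.3 CPM in controls (median 0.308) and from 0.0165 to 1.75 CPM in RhoC tumors (median 0.218). With SE 0.88 and unadjusted p = 0.0117 (adjusted p = 0.143 with edgeR; exact permutation p = 0.162 on log2 CPM) it was the only lower member past the unadjusted threshold, and its log2 fold change was -1.36 without N-17. N-17, which held 10.3 CPM of Col6a6, was also the tumor with the most skeletal muscle and adipocyte marker RNA, and the part of these in the result was not tested.

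Col7a1, the anchoring fibril chain made by basal epithelium and fibroblasts, separated a group of RhoC tumors. It ranged from 1.14 to 65.7 CPM in controls (median 20.6) and from 4.34 to 562 CPM in RhoC tumors (median 36.9). R-13 (562 CPM), R-6 (526 CPM), R-12 (234 CPM), R-14 (119.5 CPM) and R-15 (89.3 CPM) lay above every control, and the other 7 lay among the controls. The log2 fold change was 2.52 (SE 0.91, unadjusted p = 0.0112, adjusted p = 0.141 with edgeR), with exact permutation p = 0.149 on log2 CPM, and it was 1.03 without the 3 squamous tumors. Basal epithelial markers (Krt5, Krt14, Krt17, Trp63 and Itga6) summed to 18520 CPM in R-6, 14040 in R-13, 6703 in R-14 and 4988 in R-12, the highest 4 of all tumors, and ranged from 530 to 3535 CPM in controls. R-15, the other tumor above every control for Col7a1, had a basal sum of 1239 CPM, within that range. N-1, the control with the most Col7a1, was also the control with the highest basal sum, whereas N-17, the next control for Col7a1 at 43.2 CPM, summed to 753 CPM. The part of basal cell content in the difference was not tested.

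The multiplexins Col15a1 and Col18a1 lie at basement membranes, and Col18a1 is the source of endostatin. Col18a1 ranged from 83.4 to 764 CPM in controls (median 186) and from 37.5 to 2531 CPM in RhoC tumors (median 383), with R-13, R-12, R-14, R-6 and R-15 above all controls and R-18 lowest. The log2 fold change was 1.72 (SE 0.67, unadjusted p = 0.0182, adjusted p = 0.169 with edgeR), with exact permutation p = 0.178 on log2 CPM, and it was 1.08 without the 3 squamous tumors. The 5 tumors above all controls were thus the same for Col7a1 and Col18a1. Col15a1 was less variable, from 40.1 to 268 CPM in controls and from 98.6 to 498 CPM in RhoC tumors, at a log2 fold change of 0.73 (unadjusted p = 0.0586 with edgeR).

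The transmembrane collagens were mostly low. Col23a1 ranged from 0.298 to 4.77 CPM in controls (median 1.87) and from 1.06 to 21.7 CPM in RhoC tumors (median 3.91), where R-15, R-14 and R-13 from mouse P497 were highest at 21.7, 16.9 and 15.2 CPM. Its log2 fold change of 1.69 (SE 0.60, unadjusted p = 0.00979, adjusted p = 0.135 with edgeR; exact permutation p = 0.0614) was 0.60 without that mouse. Col13a1 ranged from 0.617 to 4.17 CPM in controls (median 2.09) and from 0.281 to 14.6 CPM in RhoC tumors (median 3.42), at a log2 fold change of 1.20 (SE 0.52, unadjusted p = 0.0313 with edgeR; exact permutation p = 0.118 on log2 CPM), and 0.57 without mouse P497. For both genes the difference was thus smaller without the 4 tumors of this mouse. Col25a1 had the opposite sign, with up to 137 CPM in N-9 and 2.23 CPM at its lowest in R-2 (log2 fold change -1.22, unadjusted p = 0.102 with edgeR). Col26a1 and Col28a1, which are not transmembrane collagens, had log2 fold changes of -0.54 and -1.10 (unadjusted p = 0.514 and 0.113 with edgeR). Col28a1 was highest in N-17 at 9.17 CPM.

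**Figure D5:**
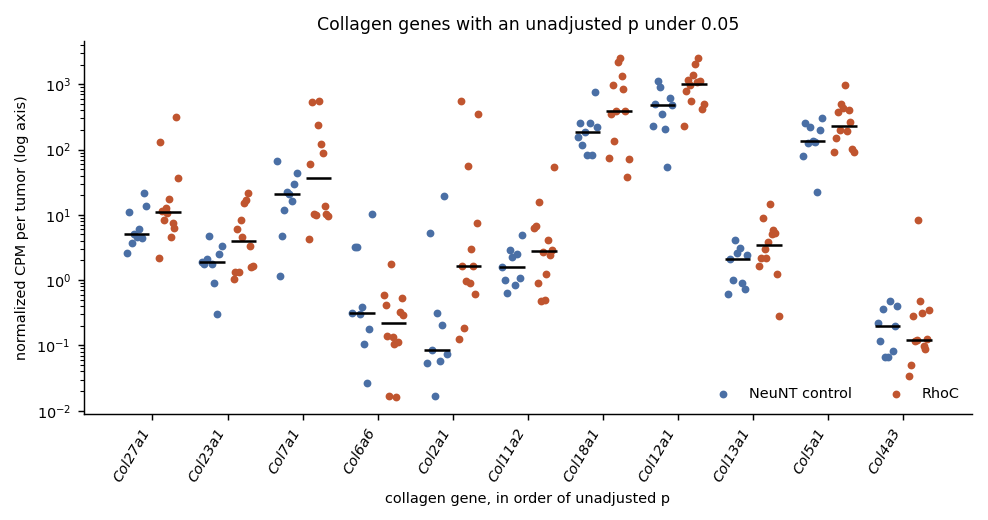
Normalized CPM in each tumor, on a log axis, of the 11 collagen genes with an unadjusted p under 0.05, in order of p along the horizontal axis, with NeuNT controls in blue, RhoC tumors in orange and bars at the cohort medians. For Col2a1 and Col27a1 a few RhoC tumors lie far above the rest, for Col4a3 R-12 alone does, and for every gene shown the cohorts overlap.

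Promoter windows from RefSeq (GRCm38.p6) were found for 34 of the 43 members, with 37 windows in all. Motifs were sought only in the 250 bases before each start. There the motif GGGCGG, a GC box, occurred on either strand in 22 of these windows (59.5%), against 32.7% of all 32851 windows. CCAAT occurred in 12 (32.4%, against 33.9%) and TATAAA in 4 (10.8%, against 12.4%), those of Col3a1, Col10a1, Col11a2 and Col13a1. The 150 bases before the start are shown for Col3a1 and Col7a1, a member with similar means in both cohorts and a member whose levels differed widely between tumors, to contrast a window with TATAAA and no GGGCGG with a window that has GGGCGG and no TATAAA. Capitals mark these motifs, and no exon of GENCODE M21 overlaps either stretch, chr1:45311388-45311537 and chr9:108953436-108953585 of GRCm38.p6, both on the plus strand.
Col3a1: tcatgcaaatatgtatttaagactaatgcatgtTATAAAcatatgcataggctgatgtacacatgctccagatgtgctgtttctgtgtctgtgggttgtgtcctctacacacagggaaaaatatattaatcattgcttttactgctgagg
Col7a1: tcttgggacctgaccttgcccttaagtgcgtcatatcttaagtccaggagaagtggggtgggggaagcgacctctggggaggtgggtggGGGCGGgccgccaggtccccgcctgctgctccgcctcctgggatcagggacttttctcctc
A match describes these letters alone and not a bound site.

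Genes that act on collagen were described from lists, whose counts stand against 49.6% of all genes tested being higher in RhoC tumors by sign, and against 10.5% being higher and 9.93% lower at unadjusted p under 0.05. Of 19 genes for folding and modification of the chains, 12 were higher in RhoC tumors (median log2 fold change 0.32), 5 with unadjusted p under 0.05, all higher. P3h1, a prolyl 3-hydroxylase, ranged from 8.49 to 23.1 CPM in controls and from 16.2 to 63.8 CPM in RhoC tumors (log2 fold change 0.94, SE 0.24, unadjusted p = 0.000662, adjusted p = 0.0688 with edgeR). Serpinh1, the collagen chaperone HSP47, was higher by 0.65 on the log2 scale (SE 0.22, with an adjusted p of 0.129 from edgeR). Of the 12 tested genes for processing and crosslinking, 10 were higher (median 0.62). By p-value the first were the lysyl oxidase Loxl3 (log2 fold change 1.62, SE 0.52, adjusted p = 0.113 with edgeR) and the procollagen proteinase Bmp1 (1.23, SE 0.40, adjusted p = 0.117 with edgeR). Of 9 tested collagen receptors 5 were higher (median 0.15), with the integrin chain Itga2 at 1.99 (SE 0.67, adjusted p = 0.125 with edgeR) and all others above an unadjusted p of 0.05. The fibril-associated proteoglycans had the opposite sign, with 6 of 8 tested genes lower (median -0.98) and 4 of them, Omd (log2 fold change -2.23), Aspn (-1.17), Dcn and Ogn, with unadjusted p under 0.05, where 9.93% of all genes were lower at that p. Bgn (biglycan), the most abundant gene of the list, had the other sign (log2 fold change 0.38, unadjusted p = 0.294 with edgeR), and the sum of the list had medians of 644 CPM in controls and 672 CPM in RhoC tumors. Ogn was highest in N-17, at 121 CPM. Dcn (decorin), which binds type I fibrils, ranged from 4.28 to 320 CPM in controls (median 96.7) and from 10.5 to 182 CPM in RhoC tumors (median 23.7), at a log2 fold change of -1.57 (SE 0.63, unadjusted p = 0.0206 with edgeR). In edgeR's fit 0 genes of these 4 lists passed the adjusted threshold.

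Markers of cells that make collagen were set beside these values, and the same shares of all genes apply to them. Of 10 fibroblast markers 7 were higher in RhoC tumors (median log2 fold change 0.46) and Dpt alone had unadjusted p under 0.05, lower in RhoC tumors (-2.31, SE 1.01, p = 0.0327 with edgeR). Their sum ranged from 76.0 to 591 CPM in controls and from 174 to 869 CPM in RhoC tumors, highest in R-10 and lowest in N-9, which were also the highest tumor for Col3a1 and the lowest for 15 members. Of 8 pericyte and smooth muscle markers 6 were higher (median 0.50), with Cspg4 at unadjusted p = 0.0160, and of 6 endothelial markers 1 was higher (median -0.27). All 6 luminal markers were lower on average (median -0.28) and 4 of 5 basal markers higher (median 1.37), none with unadjusted p under 0.05 with edgeR.

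Of 7 tested cartilage and bone markers 6 were higher in RhoC tumors (median 1.78), against 49.6% of all genes, and 3 of them had unadjusted p under 0.05, against 10.5%. Acan (aggrecan) reached 0.609 CPM in controls and 43.3 CPM in RhoC tumors, in R-21 (log2 fold change 5.93, SE 1.65, adjusted p = 0.0826 with edgeR), and Cnmd (chondromodulin) reached 2.87 and 76.6 CPM, also in R-21 (4.11, SE 1.45, adjusted p = 0.136 with edgeR). The sum of all 11 genes of the list ranged from 2.73 to 35.4 CPM in controls and from 2.25 to 910 CPM in RhoC tumors, led by R-21 (910 CPM) and R-1 (858 CPM). In R-1 the gene Comp, for cartilage oligomeric matrix protein, alone made 847 CPM, while Col2a1 in this tumor, at 0.125 CPM, was the lowest of the RhoC cohort. The genes Matn1, Hapln1, Ibsp and Bglap stayed too low to be tested. R-21 was thus high for Acan, Cnmd, Col2a1, Col11a2, Col9a3 and Col11a1, whereas R-2, the tumor with the most Col2a1, summed to 46.8 CPM for the markers. The part of cartilage-like tissue in the levels of Col2a1, Col11a2 and type IX collagen was not tested. Adipocyte, skeletal muscle and macrophage markers gave 0 of 1, 0 of 3 and 2 of 5 tested genes higher, and Mb (myoglobin), highest in N-17 at 99.2 CPM, was the single gene of all lists with an adjusted p under 0.05 (log2 fold change -3.31, SE 0.66, adjusted p = 0.0339 with edgeR). Mb ranged from 2.68 to 99.2 CPM in controls (median 8.17) and from 0.321 to 5.48 CPM in RhoC tumors (median 1.38), so every control lay above the RhoC median.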

How the data were processed

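Raw counts per gene were deposited by the authors for each of 21 tumors, as whole numbers. Per the study's methods and the submitters' processing notes, reads of ribosome-depleted total RNA were trimmed with Trim Galore 0.5.0, checked with FastQC 0.11.5, aligned to GRCm38.p6 with STAR 2.6.0c and counted with htseq-count 0.6.1p2. Reads that mapped to several places or to more than one gene were discarded. The strand setting and the annotation release are not given in the sources used here. The deposited FPKM, scaled by the authors for gene length and library size, were used for levels between genes only. The fold changes and p-values of the deposited tables, which hold the authors' own comparisons, were not used.

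Counts were normalized with TMM and tested with edgeR 4.0.16 in R 4.3.3 (filterByExpr by cohort, quasi-likelihood test without covariates, 19315 genes, Benjamini-Hochberg adjustment over all of them). The study pooled its controls whatever their Gata4 allele, and so did this design. The SE is the size of the log2 fold change over the square root of F. Log2 CPM used a prior count of 2. Single values were tested by exact permutation over all 293930 labelings and correlations with 100000 resamples. Alternatives were DESeq2 1.42.0, limma 3.58.1 (voom, mouse as a random effect), other filters and scalings, counts summed per mouse, subsets of tumors and each tumor left out in turn. On simulated counts with 200 of 19034 genes changed 4-fold for the comparison of cohorts, edgeR called 138 genes and recovered 130 (65%). Python 3.11.15 was used for all else.

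Members given with all values were, in each class, the 3 with the smallest p and the 2 with the highest FPKM, members with unadjusted p under 0.05 and the genes of the planned ratios, and Col11a1 after its values were seen. Of other lists, at most the 2 genes with the smallest p were named, and Dcn, Ogn, Bgn and Comp after their values were seen. The members, lists and tests were chosen with earlier results of these data known. The labels give R-21 the mouse that the study lists for R-20, which remains unsettled. One marker list is not reported here.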

Additional observations from a re-analysis of the deposited data

Results flagged for a closer look

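Among the 9 NeuNT controls, single tumors stood apart from the rest for 4 of 41 tested collagen genes and for 1 of 6 chain ratios, by Dixon's test on the log2 scale, where chance alone gives about 1 in 20. N-9 was lowest for Col8a1, whose gap to the next control took 0.581 of the range of the 9 tumors, and for Col6a1 (0.511 of the range). N-1 was lowest for Col9a2 (0.497) and N-15 was highest for Col18a1 (0.498). For the ratio of Col5a1 to Col5a2, N-4 was lowest (0.649), with a log2 ratio of -2.02 against -0.85 in the next control. The critical value for 9 tumors is 0.493, so Col9a2 and Col18a1 passed it narrowly. The 12 RhoC tumors were not examined with this test.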

How the results depend on the processing

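No edgeR or voom setting called a member. DESeq2 called 4 (5.71% of all genes), and 6 (6.98%) without replacement of outlying counts, which was chosen after seeing the data. Members higher at unadjusted p under 0.05 numbered 10, and 2 with voom (7.03% of all genes), and leaving out each tumor gave 7 to 15. Members lower at that p numbered 1, and 0 per mouse, with voom, with Gata4 loxP controls and without P497, with 0 to 3 on leaving out each tumor. Over all alternatives the class medians ran from 0.52 (with the replicate block) to 1.11 for fibrillar, 0.32 to 0.78 for network, -0.15 to 0.82 for FACIT and -0.27 to 0.28 for other members.

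Col3a1 to Col1a1 stayed lower but lost its adjusted call per mouse (-0.63), with Gata4 loxP controls (-0.83, adjusted p = 0.0641), without P497 (-0.63) and without squamous tumors (-0.58), and lay between -0.95 and -0.75 on leaving out each tumor. The following ratios and genes turned sign. Col4a1 to Col4a2 was -0.0400 with Gata4 loxP controls and -0.0362 to 0.0411 leaving out each tumor. Col6a1 to Col6a2 was -0.0310 per mouse, -0.0195 with Gata4 loxP controls, -0.0379 without P497 and -0.0208 without squamous tumors (-0.0165 to 0.0336 leaving out each tumor). Col3a1 was 0.20 with voom and 0.20 with Gata4 loxP controls (-0.41 to 0.22 leaving out each tumor), Col4a3 -0.24 with DESeq2 (-0.25 to 2.18), Col6a1 -0.0114 per mouse and -0.0894 without P497, and Col6a2 -0.0229 and -0.0896 (-0.0397 to 0.26 leaving out each tumor). The causes were not tested.

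The tumor numbers 1, 6, 7 and 15 occur in both cohorts, but tumors of a number did not deviate together (correlations -0.237, -0.185, -0.003 and 0.022). A replicate block on these 8 tumors gave 0 called members and, at unadjusted p under 0.05, 2 higher and 1 lower (of 18939 genes, 452 and 894), against 1 higher and 0 lower (748 and 1371) without the block. With the block Col20a1 was 0.82, Col6a1 -0.28 and Col6a2 -0.26. Without it Col2a1 was -2.49, Col27a1 -0.24, Col20a1 0.27, Col6a1 -0.28 and Col6a2 -0.31. Low members such as Col4a3, with as few as 3 reads in a tumor, are limited by depth.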
